A study of Cardamine hirsuta with 6 samples.

Results

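The regions described here are 390 binding peaks of the transcription factor ChCUC1 that lay away from gene bodies and gene starts in the genome of *Cardamine hirsuta*, a crucifer with leaves divided into leaflets. Of these, 215 were in distal promoters and 175 in intergenic DNA, out of 2432 reproducible peaks in the whole series. They were chosen by the category that the study's peak annotation gives (the annotation sheet), joined to the deposited reproducible peaks by chromosome, start and end. A distal promoter peak lies between 3 and 1 kb upstream of a gene start. An intergenic peak lies in no promoter, exon or intron and not within 1 kb past a transcript end. A category was held for 1996 peaks, and the 1606 in promoter-TSS, exon, intron or transcript end categories are called the other classes below. The 435 peaks whose annotation rows were not used here are weaker, with a median fold enrichment of 2.29 against 3.28 over the 1996, so members among them are missing from the counts.

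CUC1 belongs to the NAC family of plant transcription factors, and CUC genes are known for setting the boundaries between organs and for shaping leaf margins. DNA affinity purification sequencing (DAP-seq) exposes purified genomic DNA to a tagged factor made in vitro and sequences the fragments that stay bound. It reads affinity for DNA free of chromatin proteins, and a bound fragment far from a gene need not be open or active in a leaf cell. The enrichment at such a place is a property of DNA and protein in a tube, and the gene named for a peak is only the one with the closest annotated start.

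In 3 ChCUC1_halo samples the protein carried a HaloTag at its amino end and came from a wheat germ expression system. The 3 halo samples were the control without ChCUC1. Both used genomic DNA of the Oxford strain, taken according to the protocol from rosette leaves at 4 weeks, although the tissue label reads seedlings, and about 5 µg was sheared to 200 to 400 bp. The genotype was the same in all samples, and no plant was treated, so the data compare a protein with its tag control and not plants with each other. Peaks came from 4 deposited lists. The reproducible list was selected across the ChCUC1 libraries, and the other 3 were each called on 1 ChCUC1 library against the pooled control. These are the whole-library list with 4778 peaks, the longer pseudoreplicate list with 3753 and the shorter pseudoreplicate list with 3253, where a pseudoreplicate is a random part of a library's reads. None carries a replicate number or read counts, so depth is unknown, and a value in 1 list has no replicate error. The names of the 3 single-library lists carry different library labels and not all the same run label. Differences between these lists thus cannot be told apart from differences between libraries or runs.

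Binding strength was given as the authors' fold enrichment over the Halo control at the summit, the position of highest signal in a peak. It was lowest at 2.23 and highest at 8.93 in distal promoters, with a median of 3.13. In intergenic DNA it ran between 2.34 and 8.57, with a median of 3.15, and in the other classes the median was 3.32. The middle 50% of values spanned 2.74 to 4.15 in distal promoters, 2.75 to 3.74 in intergenic DNA and 2.80 to 4.19 in the other classes, so the distributions overlapped over most of their range. All 3 groups contained strong peaks, and the upper quartile was lowest in intergenic DNA.

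**Figure D1:**
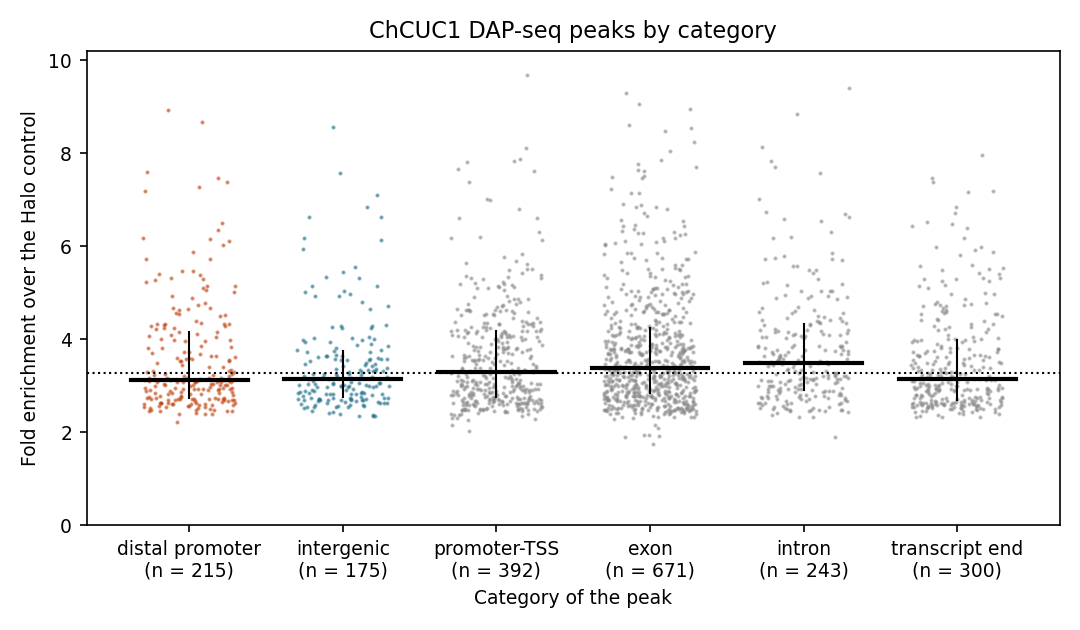
Fold enrichment over the Halo control (vertical axis) of each peak, by category (horizontal axis). Points are peaks, thick bars medians, thin lines the middle 50%, and the dotted line is the median over all categories, 3.28; the medians of 3.13 in distal promoters and 3.15 in intergenic DNA lie just below it.

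Of the distal promoter peaks, 92 of 215 lay above the median of all 1996 peaks, or 42.8% (95% exact binomial interval 36.1 to 49.7%), where 50% of all peaks do by construction. For intergenic peaks the count was 76 of 175, or 43.4% (36.0 to 51.1%), and for the other classes 51.7% (49.2 to 54.2%). Neither difference from the other classes passed Fisher's exact test after adjustment over 12 tests. By this exact test, the difference was -8.89 percentage points for distal promoters (interval -15.8 to -1.77, two-sided unadjusted p = 0.0164, Benjamini-Hochberg adjusted p = 0.0657) and -8.25 points for intergenic DNA (interval -15.8 to -0.45, unadjusted p = 0.0388, adjusted p = 0.116). Counted above the upper quartile instead of the median, the intergenic difference did pass Fisher's exact test, at 16.6% against 25.9% (adjusted p = 0.0232). At the same threshold distal promoters had 25.1%, a difference of -0.79 points from the other classes (Fisher's exact test, adjusted p = 0.991), and with only the peaks of the top score their difference at the median was -3.54 points. Among the other classes, transcript end peaks had a share above the median of 44.7%, near that of the distal peaks, and intron peaks had 56.4%. These tests count peaks as if they were independent, so intervals and p-values hold counting error alone and no variation from library to library. The distal classes differed from each other by 0.64 points, intergenic minus distal promoter, with an interval from -9.13 to 10.4 (adjusted p = 1 by Fisher's exact test). The direction of this difference turned to -8.54 points at the upper quartile (Fisher's exact test, unadjusted p = 0.0466, adjusted p = 0.140) and to -6.10 points with the top score only.

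The highest fold enrichment among distal promoter peaks was 8.93, on chromosome 2 from 10980084 to 10980598, with the peak centre 1062 bp upstream of CARHR057740. Its *A. thaliana* match is *FMO GS-OX1*, whose product oxygenates the sulfur of glucosinolate side chains, the defence compounds of crucifers. The whole-library list gave this site 8.79, and the longer and shorter pseudoreplicate lists gave 7.06 and 9.54. All 3 lists thus placed it far above the median, and their summits lay 4, 3 and 2 bp from the reproducible one.

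The next distal promoter peak, 1032 bp upstream of CARHR089270 on chromosome 3, had 8.67, with 8.39, 7.83 and 8.25 in the whole-library, longer and shorter lists. No *A. thaliana* match is listed for that gene. A peak 2052 bp upstream of CARHR256770 had 7.59, and those upstream of CARHR050510, CARHR148090, CARHR099430 and CARHR148570 had between 7.18 and 7.47. CARHR157960, CARHR202400 and CARHR165120 completed the 10 highest, down to 6.18. Distance did not order them: the peak at CARHR148090 lay 2837 bp out and the one at CARHR099430 1159 bp. Each of the 10 was present in every single-library list.

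In intergenic DNA the highest value was 8.57, on chromosome 6 from 2798071 to 2798775, centred 3918 bp upstream of CARHR178210. The match of this gene, AT5G44680, is annotated as a DNA-3-methyladenine glycosylase, an enzyme type that removes damaged bases. The single-library values were 7.64, 7.33 and 6.05 in the whole-library, longer and shorter lists. The gene has another peak in an intron 540 bp downstream of its start, with 4.18, and from both distances the start is placed at 2802341 on the plus strand. The distal peak was thus the stronger of the pair in the reproducible list.

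CARHR080230 came next with 7.56, at 8868 bp downstream of its start, followed by CARHR103020 with 7.09, at 3847 bp, and CARHR091380 with 6.84, at 3023 bp. A peak 3843 bp upstream of the match of *MYB53*, a MYB transcription factor gene, had 6.63 in the reproducible list and 7.21, 5.75 and 7.34 in the whole-library, longer and shorter lists. The peak 4464 bp upstream of the match of *STK* (*SEEDSTICK*), a MADS-box gene of ovule identity, had 6.13, with 6.04, 5.77 and 6.74 in the same lists. CARHR126950, CARHR151940, CARHR276440 and CARHR070480 were the others of the 10 highest, down to 5.55. As in distal promoters, each of the 10 was called in all 3 lists. The peak at CARHR151940 stood 22509 bp from the closest gene start and still had 6.17.

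**Figure D2:**
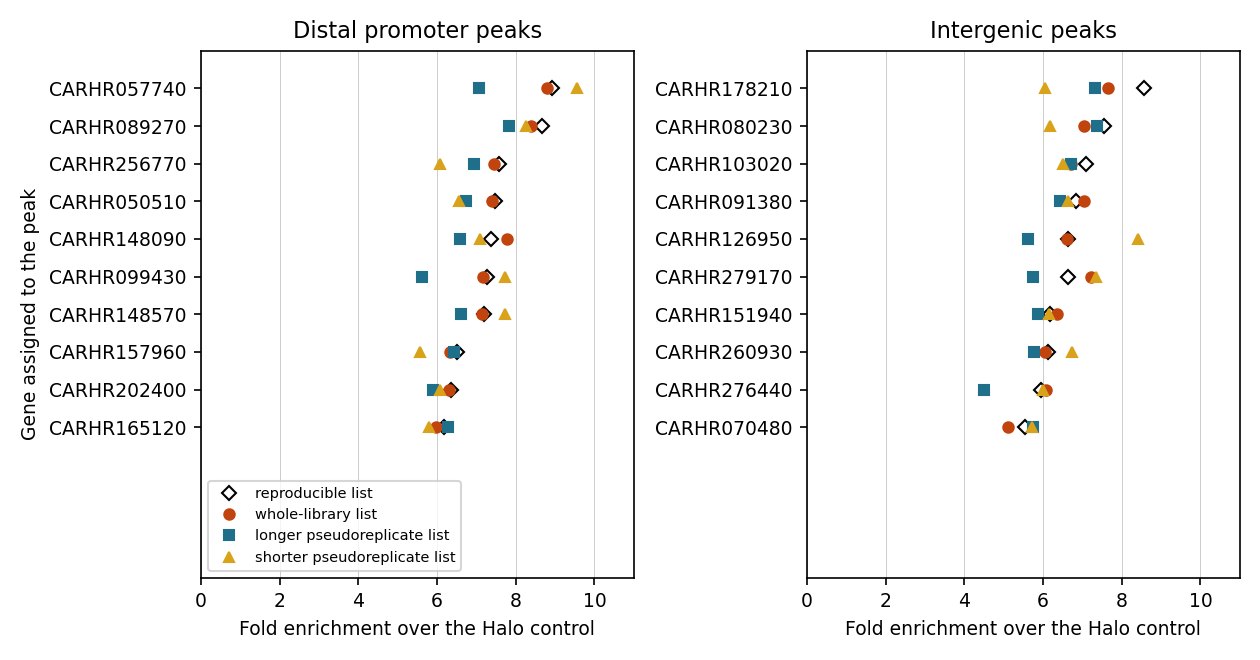
Fold enrichment over the Halo control (horizontal axis) of the 10 strongest distal promoter peaks (left) and intergenic peaks (right), named by the assigned gene, with 1 symbol for each list. Every peak has a symbol in all 4 lists, and the reproducible values fall to 6.18 on the left and 5.55 on the right.

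Distal promoter peaks were most frequent next to the gene-proximal limit, with 102 of them 1000 to 1500 bp upstream, 56 from 1500 to 2000, 32 from 2000 to 2500 and 25 from 2500 to 3000 bp. The median fold enrichment in these steps was 3.13, 3.11, 3.05 and 3.33, so the number fell with distance and the strength hardly moved. How much distal promoter DNA each step holds was not measured, so the counts do not give a density of binding. Across the 215 peaks, Spearman's rho of fold enrichment and distance was 0.02, and across the 175 intergenic peaks, with distance taken without its sign, it was -0.09, made up of -0.17 over the 87 upstream and 0.03 over the 88 downstream ones. The highest upstream intergenic values were 8.57 within 5000 bp (40 peaks), 5.34 from 5000 to 10000 (33), 4.25 from 10000 to 20000 (10) and 3.93 beyond (4). Downstream they were 7.09 (54 peaks), 7.56 (17), 4.29 (11) and 6.17 (6) in the same steps. The highest value of a step also depends on its number of peaks. These are descriptions over peaks that share their libraries.

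Intergenic peaks were split nearly evenly, with 87 upstream and 88 downstream of the assigned start. The class begins 3 kb out on the upstream side, but just past the transcript end limit on the other, so the 2 counts cover unlike stretches of DNA. The median distance was 5534 bp upstream and 4212 bp downstream. Within 5000 bp lay 40 of the upstream and 54 of the downstream peaks, and beyond 20000 bp lay 4 and 6.

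The 3 farthest upstream were at the match of *BLH5*, 51045 bp out, at CARHR219120, 35086 bp, and at CARHR055610, 26562 bp, with fold enrichments of 3.18, 2.70 and 3.72. Farthest downstream were CARHR035120, 113890 bp, CARHR104120, 36266 bp, and the match of *EIL1*, a gene of ethylene signalling, 27816 bp, with 2.69, 3.64 and 4.65. The *EIL1* peak reached 4.33, 5.23 and 4.82 in the whole-library, longer and shorter lists, so a site far from any annotated start was above the median in each of them.

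At the 1 kb limit, the closest distal promoter peak was 1007 bp upstream of CARHR197560, with 2.50, and the closest promoter-TSS peak 1000 bp upstream of CARHR129980, with 2.69. At 3 kb, the match of *ADPG1* had 3.17 at 2983 bp, just inside the promoter class, and CARHR062830 had 3.18 at 3038 bp, just outside it. On the downstream side the nearest intergenic peak was 1289 bp from the start of the match of *AGP12*, an arabinogalactan protein gene, with 2.58. At 1 kb and at 3 kb the values on either side were close, but a single peak per side cannot describe a limit.

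**Figure D3:**
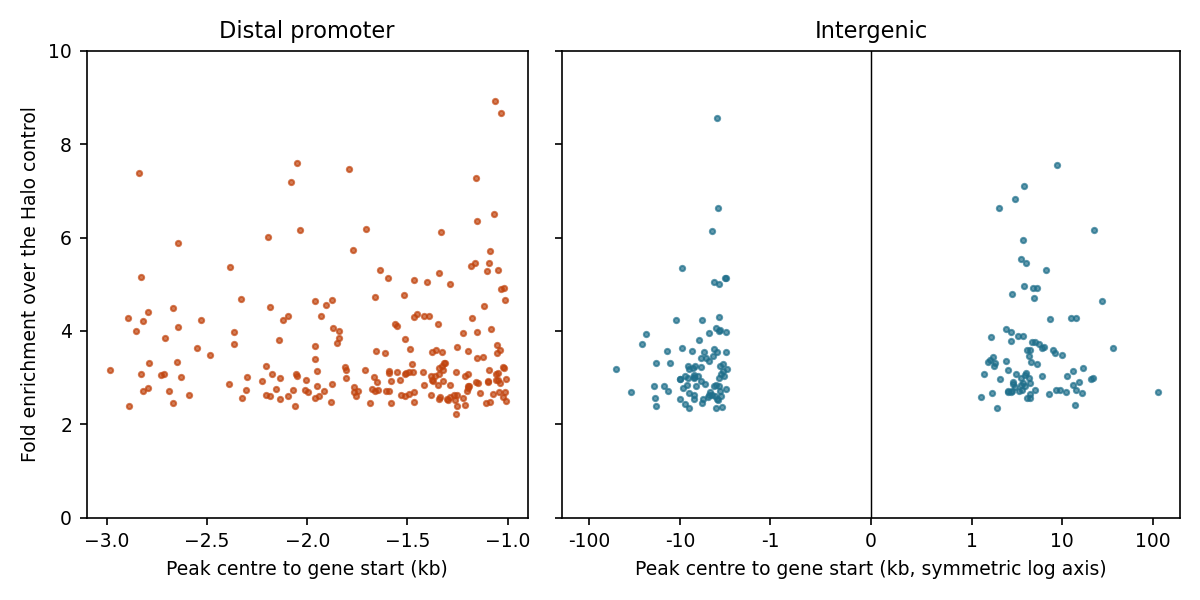
Fold enrichment over the Halo control (vertical axis) against the distance from the peak centre to the gene start in kb, negative upstream, for distal promoter peaks (left, linear axis) and intergenic peaks (right, symmetric log axis that is linear within 1 kb). Points are peaks, and rho is 0.02 on the left and -0.09 on the right. Beyond 20 kb the highest of 4 upstream peaks is 3.93 and the highest of 6 downstream peaks is 6.17.

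In the shorter pseudoreplicate list, 159 of 215 distal promoter peaks were called, or 74.0% (67.5 to 79.7%), and 128 of 175 intergenic peaks, or 73.1% (65.9 to 79.6%). Over all 1996 peaks the share was 74.3%, and in the other classes 74.5% (72.3 to 76.6%). The differences from the other classes were -0.58 points (interval -7.16 to 5.26) for distal promoters and -1.39 points (interval -8.70 to 5.01) for intergenic DNA, each with an adjusted p of 1 by Fisher's exact test. The whole-library list held 215 of 215 and 174 of 175, where 99.8% of all peaks were called. The longer pseudoreplicate list held 203 of 215, or 94.4%, and 164 of 175, or 93.7%, against 97.3% in the other classes and 96.7% of all peaks. In that list the differences from the other classes were -2.90 points for distal promoters and -3.61 points for intergenic DNA, and neither passed Fisher's exact test after adjustment (unadjusted p = 0.0307 and 0.0167, adjusted p = 0.0737 and 0.0502). All 3 lists held 71.2% of distal promoter peaks and 68.0% of intergenic peaks, against 73.1% of the other classes and 72.4% of all peaks. The reproducible list was made from the ChCUC1 libraries and is not independent of these calls.

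Summits of the same peak were nearly superposed between lists. The median offset from the reproducible summit was 5 bp in the whole-library list, 8 bp in the longer and 14 bp in the shorter pseudoreplicate list for distal promoters, and 6, 9.5 and 13.5 bp for intergenic peaks. The other classes had 5, 8 and 11 bp. Among the 153 distal promoter peaks called in every list, the median fold enrichment was 3.59, 3.54 and 3.37 in the whole-library, longer and shorter lists, and among the 119 intergenic peaks 3.66, 3.28 and 3.21. For the 1174 peaks of the other classes it was 3.77, 3.63 and 3.39, above both distal medians in each list.

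Genes next to distal peaks had a listed *A. thaliana* match less often than genes next to or containing the other peaks. The match was present for 133 of 215 distal promoter peaks, or 61.9% (55.0 to 68.4%), and for 106 of 175 intergenic peaks, or 60.6% (52.9 to 67.9%), where 72.0% of all 1996 peaks had one. In the other classes the share was 74.6% (72.4 to 76.7%). The difference was -12.7 points for distal promoters (interval -19.7 to -6.13) and -14.0 points for intergenic DNA (interval -21.7 to -6.75), and both passed Fisher's exact test (adjusted p = 9.1e-04 each). Promoter-TSS peaks, at 64.5%, also lay below exon peaks at 80.5% and intron peaks at 81.1%. Against promoter-TSS peaks alone, a comparison chosen after seeing the data, the differences were -2.68 and -3.97 points and passed no threshold (adjusted p = 1 for both, Fisher's exact test).

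**Figure D4:**
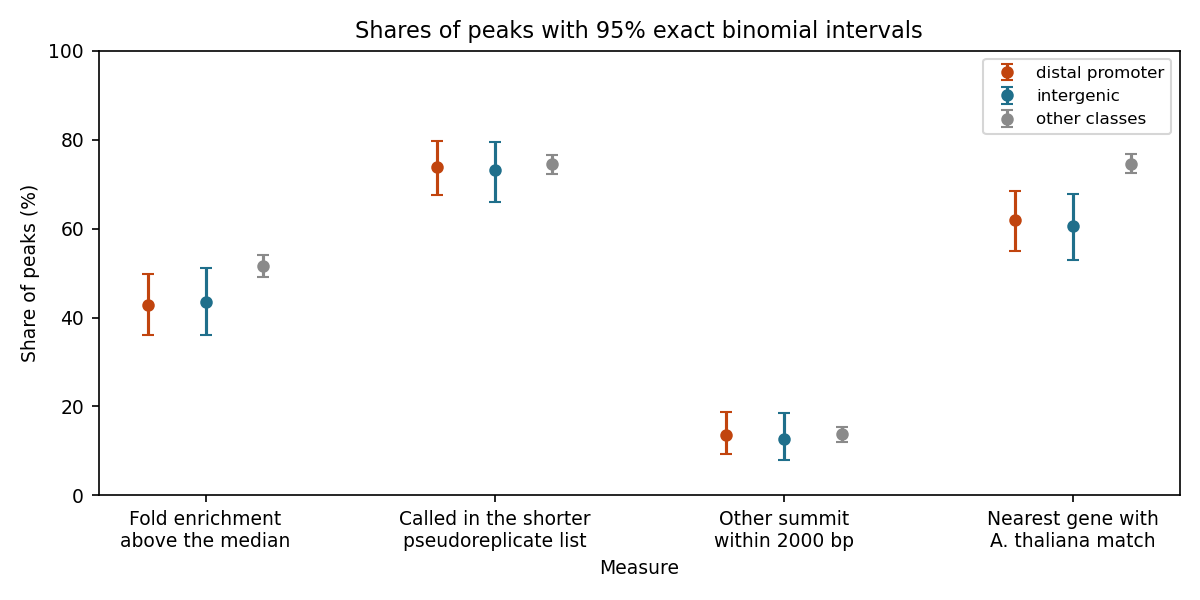
Share of peaks in percent (vertical axis) for 4 measures (horizontal axis) in distal promoters, intergenic DNA and the other classes. Points are shares and bars 95% exact binomial intervals; only the share with an *A. thaliana* match, 61.9% and 60.6% against 74.6%, differed by the adjusted test.

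The study also listed 422 genes as bound by ChCUC1 in DAP-seq and in ChIP-seq from plants, and these included the genes of 35 intergenic peaks and 17 distal promoter peaks. Relative to all peaks of each class this was 20% (14.3 to 26.7%) and 7.91% (4.67 to 12.4%), against 9.53% (8.13 to 11.1%) in the other classes and 10.3% of all 1996 peaks. Each of the 422 genes has an *A. thaliana* match, and CARHR103850, a listed target of the study without a match, is not among them, so the list may leave out bound genes that have no match. Among peaks whose gene has a match, the shares were 33.0% (24.2 to 42.8%) for intergenic DNA, 12.8% (7.63 to 19.7%) for distal promoters and 12.8% (10.9 to 14.8%) for the other classes. Exon peaks were next at 17.4% and promoter-TSS peaks lowest at 6.32%. Binding in DAP-seq was part of how the list was made and the annotation was held in part, so these shares are a description without a test. The list names genes and not sites, so it does not say that both assays found the same place. Only 194 of the 422 genes had any held peak here, and why the others had none was not tested. The median distance to the gene start was 5645 bp for the 35 intergenic peaks and 4440 bp for the other 140, and the part of gene spacing in these shares was not tested.

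Among the 28 genes that the study lists as targets, 3 had a distal peak. Of all 1996 held peaks, 390 were distal. The study took the 28 from the overlap of genes responding to ChCUC1 induction, ChIP-seq and DAP-seq. Binding in DAP-seq was thus part of their choice, and the count is no result about targets. The match of *CRK2*, a receptor kinase gene of the cysteine-rich family, had its peak 1878 bp upstream of the start, with 4.67 in the reproducible list and 4.39, 4.47 and 4.60 in the whole-library, longer and shorter lists. CARHR091540 had 3.84 at 1844 bp upstream, with 4.14, 3.30 and 3.13, and CARHR103850 had 2.41 at 14057 bp downstream, with 2.61 and 2.33 in the whole-library and longer lists. The CARHR103850 peak was not called in the shorter list and was below the median of intergenic peaks, whereas *CRK2* was above the median over all peaks in each list.

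Other genes of the cysteine-rich receptor-like kinase family, membrane kinases with paired cysteine motifs outside the cell, also had distal promoter peaks. Of 26 genes in the family list, 4 had one and none had an intergenic peak, and 7 had any held peak. Over all 1996 held peaks, 215 were in distal promoters and 175 were intergenic. The family list was chosen with earlier results of these data known, so its counts are no result about the family. The match of *CRK23* had 3.96 at 1225 bp upstream, *CRK38* 3.33 at 2649 bp and *CRK13* 2.52 at 1299 bp. Each was called in all 3 single-library lists. At *CRK13* an exon peak 376 bp downstream of the start had 2.96. How the alignment treated reads that fit several members of this family was not tested.

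For auxin, the hormone whose maxima mark the sites of leaflets, 4 of 46 listed genes had a distal peak and 15 had any held peak. *SAUR16*, one of the small auxin-up RNA genes, had the strongest, 6.02 at 2198 bp upstream of CARHR247880, with 6.31, 5.63 and 4.63 in the whole-library, longer and shorter lists. The match of *YUC7* (CARHR127240), a flavin monooxygenase gene of auxin synthesis, had an intergenic peak 5641 bp upstream with 4.24, and 3.86, 3.58 and 4.74 in the same lists. Its exon peak at 361 bp had 3.77, and both distances place the gene start at 16217606 on the minus strand of chromosome 4. *SAUR8* had 3.25 at 8227 bp upstream, and *IAR3*, whose enzyme frees auxin from its amino acid conjugates, 2.64 at 7009 bp. The *IAR3* peak was called in 2 of the 3 lists, not in the shorter one. The auxin list was chosen with earlier results of these data known, so its counts are no result about auxin genes. Among all 1996 held peaks, 390 were distal.

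Homeobox genes, some of which set meristem and leaf identity, contributed 4 distal peaks at 3 of 32 listed genes. Of the 32, 6 had any held peak. Of all 1996 held peaks, 390 were distal. *KNAT4*, a class II KNOX gene, had 4.24 at 2123 bp upstream, with 3.97, 4.03 and 3.58 in the whole-library, longer and shorter lists. *WOX9*, a WUSCHEL-related gene of meristem growth, had 3.02 at 6937 bp upstream, with 2.94, 3.21 and 2.46. *BLH5*, a BEL1-like gene, had a pair of intergenic peaks at 15119 and 51045 bp upstream, with 2.82 and 3.18, and an exon peak with 2.75. All 3 genes are in the study's list bound in both assays. That list covers the genes of 10.3% of all 1996 peaks. Among peaks whose gene has a match, it covers 33.0% of intergenic and 12.8% of distal promoter ones. The homeobox list was chosen with earlier results of these data known, so these counts are no result about homeobox genes. In the list of organ boundary and leaf complexity genes, chosen in the same way, 1 of 16 had a distal peak and 3 had any held peak. It was *BOP2*, a co-activator gene of the leaf base, with 2.83 at 4170 bp upstream, and it was called in the whole-library list only, with 2.91.

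Genes of the cell wall and of nucleotide sugar synthesis had 9 distal peaks at 9 of 28 listed genes, and no listed gene had a held peak without having a distal one. The strongest was at *CESA7*, a cellulose synthase gene of secondary walls, 1163 bp upstream of CARHR195790, with 5.46 in the reproducible list and 5.70, 5.49 and 5.95 in the whole-library, longer and shorter lists. *XTH32*, a xyloglucan-modifying enzyme gene, had 3.80 at 6197 bp upstream, and *ADPG1*, a polygalacturonase gene of organ separation, is described at the 3 kb limit. *UGD2*, *UXS6* and *UGE2*, which act on UDP-sugars, the precursors of wall polysaccharides, had 2.92, 2.72 and 2.63. *GH9C2*, an endoglucanase gene, had 2.79 and *XYN1*, a xylanase gene, 2.70. Apart from *CESA7* and *XTH32*, all of these were below the median over all peaks. The list was drawn up with the annotation known, so the 9 of 9 reflects the choice of genes.

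Cytochrome P450 genes, whose enzymes oxidise hormones and specialised metabolites, had 6 distal peaks at 5 of 18 listed genes, and 13 had any held peak. This list was also chosen with earlier results known, and 390 of all 1996 held peaks were distal. *CYP714A1*, known in *A. thaliana* for inactivating gibberellin, had 5.04 at 4166 bp upstream, with 4.78, 4.09 and 4.67 in the whole-library, longer and shorter lists. *CYP76C2* had 3.62 at 1487 bp, and *CYP735A2*, the cytokinin hydroxylase gene, 2.70 at 4661 bp. *CYP709B2* had 2.40 at 1254 bp and a further 2.47 in an exon. *CYP76G1* carried peaks on both sides of the 3 kb limit, 2.77 at 2794 bp and 3.26 at 3587 bp. Only *CYP714A1* and *CYP76C2* exceeded the median over all peaks.

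Transcription factor genes outside these lists supplied 20 distal peaks at 19 of 26 listed genes, and 20 of the 26 had any held peak. Intergenic peaks were at 13 genes and distal promoter peaks at 6. Over all 1996 held peaks, 175 were intergenic and 215 in distal promoters. As this list too was drawn up with the annotation known, the counts reflect its choice. After *MYB53* and *STK* came *URO*, a zinc finger gene, with 4.92 at 5346 bp downstream, *EIL1* and *GLK1*, a gene of chloroplast development, with 4.30 at 3746 bp upstream. *bZIP19*, known for the response to zinc shortage, had 4.16 at 1564 bp upstream, with 4.15, 4.16 and 4.13 in the whole-library, longer and shorter lists. The Dof genes *DOF1.7* and *DOF1.8* had 4.15 and 4.03. The *bZIP19* values were almost the same in every list, whereas *DOF1.7* ran between 3.08 in the shorter list and 4.25 in the whole-library list.

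Another reproducible summit lay within 2000 bp of 29 of 215 distal promoter peaks, or 13.5% (9.22 to 18.8%), and of 22 of 175 intergenic peaks, or 12.6% (8.05 to 18.4%), where 13.6% of all 1996 peaks had one. In the other classes it was 13.7% (12.1 to 15.5%). The differences were -0.21 points (interval -4.52 to 5.24) and -1.13 points (interval -5.61 to 4.82), with an adjusted p of 1 by Fisher's exact test for both. Within 5000 bp the intergenic share was 20.6%, against 29.2% in the other classes, a difference of -8.63 points (Fisher's exact test, unadjusted p = 0.0169, adjusted p = 0.0507), and distal promoters had 30.2%. The median distance to the nearest other summit was 26151 bp for intergenic peaks and 14605 bp for distal promoter peaks, against 14388 bp for the other classes.

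In 9 such pairs both peaks were distal, and 7 of the 9 were made of intergenic peaks only. Their summits were 914 to 1859 bp apart, with a median of 1197 bp, and the 177 pairs of all reproducible peaks had the same median. Downstream of CARHR070480, summits at 18583205 and 18584661 on chromosome 2 had 4.92 and 5.55, with 4.77 and 5.11 in the whole-library list, 4.77 and 5.74 in the longer and 4.67 and 5.72 in the shorter. The summit farther from the gene start was the lower of the pair in all 4 lists.

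Upstream of CARHR028950, summits at 10700641 and 10701619 on chromosome 1 had 3.36 and 5.01. They had 3.35 and 5.73 in the whole-library list and 2.88 and 4.61 in the longer one, but 4.18 and 3.89 in the shorter, where the order was the opposite. At CARHR034680, summits 942 bp apart and over 10000 bp downstream of the start had 2.85 and 4.28. Between the match of *CAM8* (CARHR221000), a calmodulin-like gene, and CARHR221010, 1 summit assigned to each had 3.89 and 3.15.

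Between CARHR050080 and CARHR050090 the values were 3.05 and 3.55, and between CARHR221730 and CARHR221740 they were 3.89 and 5.45. *DYT1*, a transcription factor gene of the tapetum, had 3.17 and 2.73 at 2511 and 3636 bp downstream. The other 2 pairs were at CARHR118090, with 2.39 and 3.70, and at *CYP76G1*. The ratio of the higher to the lower value in a pair ran between 1.13 and 1.55. No pair was joined into 1 peak in the whole-library list or the longer pseudoreplicate list, and for 7 pairs each single-library list held both peaks.

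The 390 peaks were assigned to 380 genes, and 10 genes had 2 or more of them. For 3 genes there was both a distal promoter and an intergenic peak: CARHR098680, CARHR103020 and *CYP76G1*. At CARHR103020 the intergenic peak, 3847 bp downstream, had 7.09 and the promoter peak, 2791 bp upstream, 3.32. A peak of the same gene in the other classes accompanied 39 of the 390. How often held peaks of the other classes share their gene was not counted, so 39 is a number without a comparison. At CARHR129030 the distal promoter peak had 2.74 and an exon peak 8.47, and at *XYN1* they had 2.70 and 6.71. The order was the opposite at CARHR099430, with 7.27 in the distal promoter and 3.09 in an intron, and at CARHR256770, with 7.59 against 2.74 at promoter-TSS. Neither position was thus regularly the stronger in these examples, which were chosen after their values were seen.

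Distal peaks were present on all 8 chromosomes. Distal promoters made up 8.22% of the held peaks on chromosome 1 (5.34 to 11.98%) and 14.1% on chromosome 4 (9.85 to 19.3%), the lowest and the highest share. Intergenic peaks made up 5.48% on chromosome 1 (3.16 to 8.75%) and 11.5% on chromosome 2 (7.29 to 17.1%). On scaffolds, which are sequences not placed on a chromosome, 14 of 76 peaks were intergenic, or 18.4% (10.5 to 29.0%), and 7 were in distal promoters. How much intergenic DNA each sequence holds was not measured, so the shares are given without a test. Scaffold NSCAFA.214I held 3 distal promoter peaks, at CARHR285480, CARHR285490 and CARHR285540, with fold enrichments of 2.93, 3.82 and 3.24, and 1 intergenic peak, at CARHR285330, with 2.68. These 4 were chosen after their values were seen.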

How the data were processed

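The authors made the peak lists from aligned reads. Bowtie, MACS2 and bedtools are named in the processing notes of the submitters, without versions, and for the genome build the sources used here name none. None of the 4 deposited lists holds read counts. The fold enrichment is the authors' ratio over the Halo control, and the −log10 p and the summit offset in bp are deposited values as well. The score, where 1000 is highest, is the authors' scaled reproducibility score. By their names, the single-library lists were called with duplicates removed at a p-value threshold of 0.01.

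Reproducible peaks were joined to the annotation sheet by chromosome, start and end. Distances run from the peak centre, since they differed as the centres did, within 2 bp, for 104 of 104 pairs of peaks, 1 pair for each transcript with several. Gene starts were computed from such pairs. Lists shared a peak at an overlap of at least 1 bp. Shares have 95% exact binomial intervals, differences Newcombe intervals, and Fisher's exact test was adjusted over 12 tests at a threshold of 0.05. Scripts used Python 3.11.15, pandas 2.3.3, NumPy 2.4.6, SciPy 1.17.1 and matplotlib 3.10.9, and were tested on simulated data.

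The members and lists were chosen with earlier results of these data known. The named peaks are the 10 highest per class, those at the 28 targets, pairs of distal summits within 2000 bp, the 3 farthest intergenic peaks on each side, those nearest the class limits, and members of 7 gene lists (all of 4 lists, up to 8 peaks of the others). Names are those of *A. thaliana* matches. Alternatives were other thresholds, overlaps, distances and subsets.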

Additional observations from a re-analysis of the deposited data

How the results depend on the processing

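No paired analysis was possible because no list names its replicate and the Halo control was pooled, and no list could be left out as a replicate. Depth is unknown, and an interval over peaks says nothing of error between libraries. Across the alternatives, 32 values kept their direction and their side of the threshold, 11 changed sign, 1 passed the threshold newly and 2 no longer passed it. The differences in share are in percentage points, with the class named earlier minus the later one. Of the share above the median, intergenic minus other classes became -9.33 and passed the test at the upper quartile, and intergenic minus distal promoter changed sign, to -8.54 at the upper quartile and -6.10 with the top score only. Where a shared peak had to overlap by 50% of each peak, the shorter pseudoreplicate list held far fewer peaks. The shares were 19.1% in distal promoters, 20% in intergenic DNA and 17.8% in the other classes. The differences then changed sign, to 1.26 for distal promoters and 2.19 for intergenic DNA against other classes. Between the distal classes the difference changed sign to 0.93, and to 0.37 where summits had to lie within 100 bp. Of the share with a neighbour, intergenic minus other classes changed sign at 1000 bp (0.22) and with the top score only (2.63), intergenic minus distal promoter under the same settings (2.35 and 3.85), and distal promoter minus other classes at 5000 bp (1.03). None of these sign changes concerned a difference that passed the test. Against promoter-TSS peaks alone, added after seeing the data, the share with an *A. thaliana* match differed by -2.68 for distal promoters and -3.97 for intergenic DNA and no longer passed the test. Under the other alternatives its adjusted p stayed between 6.9e-04 and 4.1e-03 for both classes. The cause was not tested.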
